A study of Mus musculus with 4 samples.

Results

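The immunity-related GTPases (IRG) and the giant interferon-inducible GTPase Gvin1 were followed in bone marrow-derived macrophages of C57BL/6 mice by RNA sequencing. The members were named by gene symbol as Irgm1, Irgm2, Igtp, Iigp1, Tgtp1, Tgtp2, Ifi47 and Gvin1, and all 8 were found among the 24135 genes of the tables. The study made 4 libraries, 1 from each culture: Batf2-/- cells (called KO) after 3 h of lipopolysaccharide (LPS, a bacterial cell wall component), wild-type Batf2+/+ cells (WT) after 3 h of LPS, KO cells at 0 h and WT cells at 0 h. Batf2 codes for a basic leucine zipper protein that controls transcription. Bone marrow cells were grown for 6 days with 10 ng/ml GM-CSF, and the adherent cells were used. By the labels, each of the 4 cultures was given interferon-gamma (IFN-γ, 10 ng/ml) for 4 h before LPS (100 ng/ml), which then acted for 0 or 3 h. The labels do not say which bases of Batf2 were removed, and they give no culture without IFN-γ. With 1 library in each group there is no replicate error and no test. Levels are given as FPKM, a read density scaled to transcript length and sequencing depth. The intervals printed come from the 95% limits deposited with the FPKM, shifted to lie on it with their relative width kept, and they describe the estimate within a library and not the spread between cultures. The shift matters at 3 h, where the FPKM of Irgm1, Irgm2, Igtp, Tgtp1 and Tgtp2 lay above its own deposited limits in both libraries, while no member did so at 0 h. Whether the intervals of KO and WT overlapped was judged from the deposited limits, and the shifted ones gave the same answer for each member.

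IRG proteins are GTP-binding proteins that IFN-γ induces strongly in mouse cells. Effector IRG proteins collect on the membrane of vacuoles that hold pathogens such as Toxoplasma gondii and help to break it open, while the regulatory Irgm proteins sit on the cell's own membranes and keep the effectors there in their inactive, GDP-bound form. Effector IRG proteins carry the usual lysine in the first GTP-binding motif (the GKS group), and the regulators carry a methionine in its place (the GMS group). Gvin1 belongs to a family of much larger interferon-inducible GTPases whose function is less well known.

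Of the members, 6 lie on chromosome 11 (GRCm38). One stretch there holds Irgm1 at chr11:48865245-48871420, Tgtp1 at chr11:48985329-48992246 and Tgtp2 at chr11:49057196-49064212, all on the minus strand, and Ifi47 at chr11:49076587-49096987 on the plus strand. Igtp at chr11:58199556-58207592 and Irgm2 at chr11:58214977-58222783 are neighbours on the plus strand further along the same chromosome.

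A promoter window from 250 bases before to 50 bases after the annotated start was found in RefSeq (GRCm38.p6) for 6 of the 8 members. Each window was searched on both strands for the core letters of 2 elements of interferon-induced promoters. The interferon-stimulated response element (ISRE) was searched as GAAANNGAAA. The gamma-activated site (GAS) was searched as TTCNNNGAA. The ISRE core was found in 5 of the 6 members, against 3.44% of all 32851 windows in the table. The GAS core was found in 4 of the 6, against 8.3% of all windows. The stretches are shown because the members with both cores carry them in the same arrangement. Each is written 5′ to 3′ on the gene's own strand, with the matched letters in capitals: the run of 9 capitals is the GAS core and the run of 10 capitals after it is the ISRE core, while in Irgm1 the capitals are 2 ISRE cores that overlap by 4 bases.
Igtp, chr11:58199477-58199576, plus strand: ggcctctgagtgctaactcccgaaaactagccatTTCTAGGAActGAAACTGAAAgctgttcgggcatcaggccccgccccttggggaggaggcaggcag
Irgm2, chr11:58214868-58214967, plus strand: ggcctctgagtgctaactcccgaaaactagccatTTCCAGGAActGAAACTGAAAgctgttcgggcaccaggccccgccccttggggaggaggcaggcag
Irgm1, chr11:48871396-48871495, minus strand: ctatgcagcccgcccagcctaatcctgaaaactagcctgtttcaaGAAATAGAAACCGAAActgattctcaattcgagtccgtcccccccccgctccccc
Tgtp1, chr11:48992269-48992368, minus strand: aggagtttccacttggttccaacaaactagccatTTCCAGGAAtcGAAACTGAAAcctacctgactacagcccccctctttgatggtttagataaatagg
Tgtp2, chr11:49064228-49064327, minus strand: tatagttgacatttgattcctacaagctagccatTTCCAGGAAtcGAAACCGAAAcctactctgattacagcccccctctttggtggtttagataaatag
Ifi47, chr11:49076337-49076636, plus strand: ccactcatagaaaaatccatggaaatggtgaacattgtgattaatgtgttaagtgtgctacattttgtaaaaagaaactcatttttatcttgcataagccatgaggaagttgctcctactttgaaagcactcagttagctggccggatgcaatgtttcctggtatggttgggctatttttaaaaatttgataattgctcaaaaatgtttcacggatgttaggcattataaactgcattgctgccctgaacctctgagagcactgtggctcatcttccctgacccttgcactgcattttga

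In Igtp, Irgm2, Tgtp1 and Tgtp2 the GAS core lay upstream of the ISRE core, with 2 bases between them in each. The ISRE core began 34 bases before the start in Igtp, 64 in Irgm2, 77 in Tgtp1 and 70 in Tgtp2, and the upstream one of Irgm1 began 30 bases before it. The whole Ifi47 window, which belongs to the upstream of its 2 annotated starts, is printed because it held neither set of letters. Among the guanylate-binding proteins, 5 of 5 with a window held the ISRE core and 2 of 5 the GAS core. Among the other IRG and giant GTPase genes, 4 of 7 held the ISRE core and 2 of 7 the GAS core. Of these, Gm12185 had the same arrangement, with its GAS core at -86 to -78 and its ISRE core at -75 to -66 from the start. The arrangement is thus not particular to the members. The printed stretches of Igtp and Irgm2 are near copies of each other, and those of Tgtp1 and Tgtp2 share many letters, so they are not independent cases. A match of letters describes the sequence and was not measured as a bound site.

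**Figure D1:**
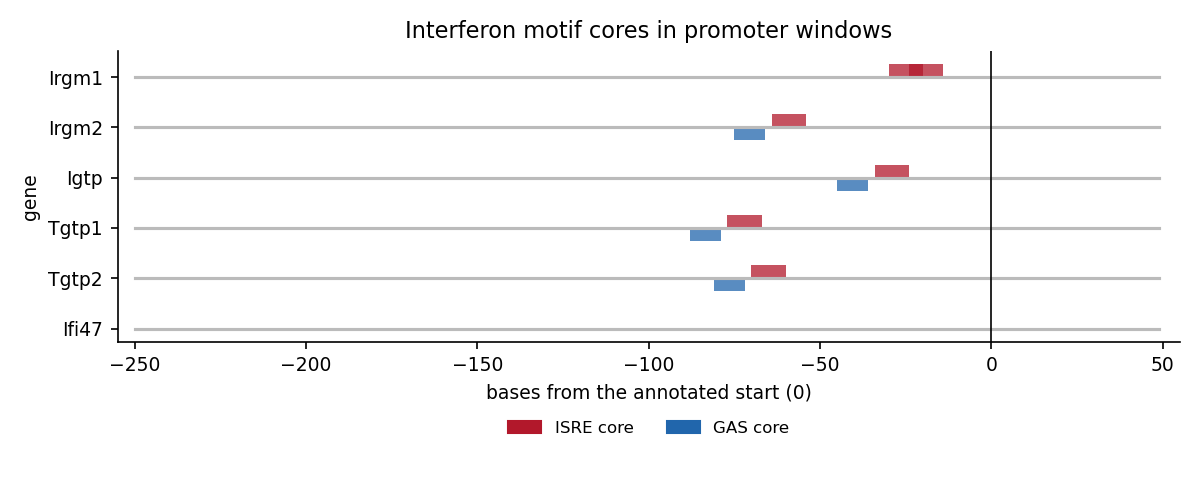
Position of the ISRE core (red) and the GAS core (blue) in the promoter windows of the 6 members with one, in bases from the annotated start at 0. In 4 genes the GAS core stands 2 bases upstream of the ISRE core, Irgm1 has 2 overlapping ISRE cores, and the Ifi47 window has neither.

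All 4 libraries had macrophage marker RNA: the 9 markers were at 1 FPKM or more in each, and their summed level was 16151 FPKM in KO and 17263 FPKM in WT at 3 h, and 24596 FPKM in KO and 22802 FPKM in WT at 0 h. Most of each sum was Lyz2, at 14415 FPKM in KO and 16015 FPKM in WT at 3 h, and at 23092 FPKM in KO and 21464 FPKM in WT at 0 h. At 3 h, 7 of these 9 markers were higher in KO and 2 lower, where 34.4% of all genes were higher. At 0 h, 6 were higher and 3 lower, where 5412 of 10846 genes were higher. Cd14 was at 624.6 FPKM in KO and 294.4 FPKM in WT at 3 h. Of 9 markers of T, B and NK cells, 8 were below 1 FPKM in each library. Neutrophil and precursor markers (9 of 10 in the tables) summed to 8775 FPKM in KO against 3593 FPKM in WT at 0 h, and to 5098 FPKM in KO against 5302 FPKM in WT at 3 h. At 0 h, all 9 of these were higher in KO, 5 of them by the size rule given below. Of all 10846 genes tested at 0 h, 5412 were higher in KO, 144 of them by that rule. Stromal markers summed to 74.5 FPKM in KO and 33.3 FPKM in WT at 0 h, and to 52.9 FPKM in KO and 33.7 FPKM in WT at 3 h. Markers of mast cells, basophils and eosinophils (7) summed to 45.9 FPKM in KO and 30.4 FPKM in WT at 0 h, where all 5 tested were higher in KO, against 5412 of 10846 genes, and to 31.5 FPKM in KO and 43.0 FPKM in WT at 3 h. Dendritic cell markers (8) summed to 567.6 FPKM in KO and 584.2 FPKM in WT at 0 h, and to 542.7 FPKM in KO and 493.8 FPKM in WT at 3 h, most of it Itgax. At 0 h, 4 of the 5 dendritic markers tested were lower in KO, where 50.1% of all genes were lower, with a median of -0.60 on the log2 scale. Cd209a was at 2.13 FPKM in KO against 6.46 FPKM in WT at 0 h, and at 0 in KO at 3 h. At 3 h, 3 of the 6 tested were lower in KO and 3 higher, with a median of -0.05, where 65.6% of all genes were lower. Clec9a was at 2.16 FPKM in KO against 9.68 FPKM in WT at 3 h. Ccr7 was at 35.2 FPKM in KO against 18.2 FPKM in WT at 3 h, and Xcr1 at 4.25 FPKM in KO against 3.61 FPKM in WT. In bulk RNA, fewer cells of a type and less RNA per cell cannot be told apart. Relative to the WT library at 3 h, the depth was 1.51 for KO at 3 h, 1.39 for KO at 0 h and 1.22 for WT at 0 h. Batf2 itself was at 10.1 FPKM in KO against 234.3 FPKM in WT at 3 h, and at 0.259 FPKM in KO against 2.63 FPKM in WT at 0 h.

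The first question was how far the family differed between 3 h and 0 h of LPS in each genotype. The 8 members together made up 0.226% of the summed FPKM in KO and 0.255% in WT at 3 h, against 0.00483% in KO and 0.0082% in WT at 0 h. A gene was counted as different between a pair of libraries when the values differed by at least 1 on the log2(FPKM + 1) scale (2-fold), an FPKM of at least 1 was reached in either, and the intervals did not overlap. By this size rule all 8 members were higher at 3 h than at 0 h in KO and in WT, where 7.85% of all genes tested in KO and 7.56% in WT were called higher. Iigp1, Tgtp1 and Tgtp2 met the minimum level only through their 3 h libraries, so that the direction of those 3 was fixed by the filter. The 0 h cultures carry the same IFN-γ label as the 3 h cultures, and with no culture outside that label the parts of IFN-γ and LPS in these levels cannot be told apart. Among the IRG members, which IFN-γ is known to induce, 0 h levels ran from low values to higher ones. Iigp1 was at 0.0941 FPKM in KO and 0.117 FPKM in WT, and Irgm1 at 7.65 FPKM in KO and 9.91 FPKM in WT. Gbp2, which codes for a guanylate-binding protein, was at 31.6 FPKM in KO and 49.8 FPKM in WT at 0 h, the highest of 11 such genes. Of the others, Gbp2b, Gbp4, Gbp10 and Gbp11 were below 1 FPKM in both genotypes at 0 h. Gbp11 was the lowest, at 0.0995 FPKM in KO and 0.174 FPKM in WT. The labels say that the 0 h cultures had received IFN-γ, and no culture without it was there to check this. The folds between the times may hold the part of either agent, and this was not tested.

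Of the regulators, Irgm1, a protein needed for resistance of mice to mycobacteria and many other intracellular pathogens, was the most abundant. It was at 254.5 FPKM (249 to 260.0) in KO and 279.6 FPKM (273 to 286) in WT at 3 h, and at 7.65 FPKM (6.76 to 8.55) in KO and 9.91 FPKM (8.84 to 11.0) in WT at 0 h. Both 3 h libraries were far above both 0 h libraries, by 33.2-fold (29.5 to 37.5) in KO and 28.2-fold (25.3 to 31.5) in WT. Igtp, also called Irgm3 and found on the endoplasmic reticulum, was at 93.2 FPKM in KO and 109.7 FPKM in WT at 3 h, and at 2.80 FPKM in KO and 3.32 FPKM in WT at 0 h. Its folds between the times were nearly equal, 33.3 in KO and 33.1 in WT. Irgm2, a regulator found on the Golgi apparatus, was at 56.5 FPKM in KO and 66.7 FPKM in WT at 3 h, and at 2.74 FPKM in KO and 2.89 FPKM in WT at 0 h, a fold of 20.6 in KO and 23.1 in WT. The 3 regulators were thus measurable before LPS and differed by a similar fold: summed, they were 30.6-fold higher at 3 h in KO and 28.3-fold in WT.

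The effectors had a wider range. Iigp1 (chr18:60373616-60392634, plus strand), also called Irga6 and the best studied effector on Toxoplasma vacuoles, was at 237.2 FPKM (233 to 242) in KO and 263.3 FPKM (258 to 269) in WT at 3 h, against 0.0941 FPKM (0.0223 to 0.166) in KO and 0.117 FPKM (0.0261 to 0.207) in WT at 0 h. It was the lowest member at 0 h and, by FPKM, the second highest at 3 h, in both genotypes. The fold was 2521 (924 to 6876) in KO and 2257 (801 to 6361) in WT, with wide intervals that overlap.

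Tgtp1 and Tgtp2, the pair of genes that code for Irgb6, an effector that reaches Toxoplasma vacuoles early, had similar levels in each library. Tgtp1 was at 97.1 FPKM in KO and 122.1 FPKM in WT at 3 h, and at 0.206 FPKM in KO and 0.154 FPKM in WT at 0 h. Tgtp2 was at 113.7 FPKM in KO and 139.1 FPKM in WT at 3 h, and at 0.257 FPKM in KO and 0.159 FPKM in WT at 0 h. Their annotated transcripts differ by 19 edits in 2823 bases (99.3% identity), and 89.4% of the 50-base words of Tgtp1 occur in Tgtp2, so the division of reads between them is uncertain. The sum of both genes was 210.8 FPKM (205 to 217) in KO and 261.2 FPKM (253 to 270) in WT at 3 h, and 0.463 FPKM in KO and 0.313 FPKM in WT at 0 h.

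Ifi47, also called Irgd, was the effector with the highest level at 0 h. It was at 155.1 FPKM in KO and 162.0 FPKM in WT at 3 h, and at 3.44 FPKM (2.84 to 4.03) in KO and 2.60 FPKM (2.06 to 3.15) in WT at 0 h. The fold between the times was 45.1 (37.7 to 53.9) in KO and 62.3 (50.1 to 77.4) in WT, with intervals that overlap. All 4 effectors summed to 603.1 FPKM in KO and 686.5 FPKM in WT at 3 h, and to 4.00 FPKM in KO and 3.03 FPKM in WT at 0 h. At 3 h the effectors' summed level was above that of the regulators (404.2 FPKM in KO and 456.0 FPKM in WT), while at 0 h it was below it (13.2 FPKM in KO and 16.1 FPKM in WT).

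Gvin1 (chr7:106156535-106215340, minus strand) had the smallest difference between the times of the 8 members. It was at 46.4 FPKM (44.6 to 48.3) in KO and 53.8 FPKM (51.2 to 56.4) in WT at 3 h, and at 5.81 FPKM (5.19 to 6.42) in KO and 19.1 FPKM (17.9 to 20.3) in WT at 0 h. These levels sum its transcript listed at 2 places in the genome, as described below. The fold was 8.0 (7.15 to 8.96) in KO and 2.81 (2.59 to 3.05) in WT. Both 3 h libraries lay above both 0 h libraries, and at 0 h the KO and WT libraries were apart.

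**Figure D2:**
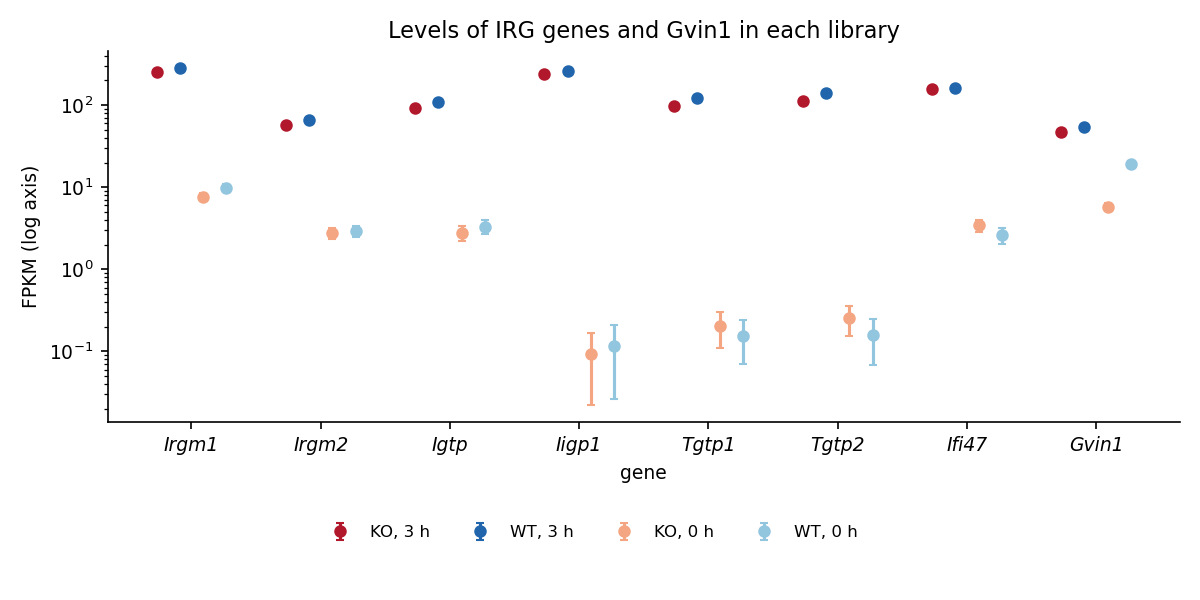
FPKM of the 8 members on a log axis in the KO and WT libraries at 3 h and at 0 h, with 1 library per point and the deposited 95% limits, shifted onto the FPKM, as the bar. Iigp1, Tgtp1 and Tgtp2 lie below 1 FPKM at 0 h, and Gvin1 has the KO point at 5.81 and the WT point at 19.1 at that time.

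The order of the levels was the same in both 3 h libraries: Irgm1, Iigp1, Ifi47, Tgtp2, Tgtp1, Igtp, Irgm2 and Gvin1, high to low. Neighbours in this order had separate shifted intervals, except Tgtp1 and Igtp in KO. By the limits as deposited, Tgtp1 and Igtp were apart in KO, while Irgm1 and Iigp1 overlapped in both libraries with Iigp1 the higher: 228 to 238 for Irgm1 and 236 to 245 for Iigp1 in KO, and 250.2 to 263 for Irgm1 and 261 to 272 for Iigp1 in WT. The order of these 2 genes at 3 h is therefore uncertain. At 0 h the order in KO was Irgm1, Gvin1, Ifi47, Igtp, Irgm2, Tgtp2, Tgtp1 and Iigp1. In WT at 0 h it was Gvin1, Irgm1, Igtp, Irgm2, Ifi47, Tgtp2, Tgtp1 and Iigp1. At that time the intervals of neighbours among Ifi47, Igtp and Irgm2 overlapped, and so did those of neighbours among Tgtp2, Tgtp1 and Iigp1, in both genotypes. The level of Gvin1 sums its transcript listed at 2 places in the genome. At its own place alone, Gvin1 at 0 h was at 2.91 FPKM in KO, below Ifi47, and at 9.59 FPKM in WT, below Irgm1. Its rank at 0 h therefore rests on that sum.

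The second question was whether the family differed between KO and WT cells after 3 h of LPS. All 8 members were lower in KO, by a median of 0.22 on the log2 scale, and none passed the size rule, by which 0.724% of all genes were called lower and 0.734% higher. A value below 0 was common at this time: 65.6% of the 9808 genes tested were lower in KO, with a median of -0.07 over all of them. The difference was -0.33 for Tgtp1, -0.29 for Tgtp2, -0.23 for Irgm2 and for Igtp, -0.21 for Gvin1, -0.15 for Iigp1, -0.14 for Irgm1 and -0.06 for Ifi47. Tgtp1 was thus 1.26-fold lower in KO (1.2 to 1.32) and Ifi47 1.04-fold lower, with a range of 0.983 to 1.11 that holds 1. The intervals of KO and WT were apart for 7 of the 8, Ifi47 being the exception, against 16.8% of all genes that were lower with intervals apart. That share was not matched for level: it holds genes from 1 FPKM up, while the lowest member at 3 h was Gvin1, at 46.4 FPKM in KO. Of the 11 guanylate-binding proteins, 5 were lower and 3 higher with intervals apart, so separate intervals were not particular to the members. When the libraries were rescaled to equal medians or upper quartiles, or the highest transcript was taken in place of the sum, Ifi47 was higher in KO by 0.02, 0.01 and 0.16, while the other 7 were still lower.

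At 0 h, 5 members reached 1 FPKM in a library and could be compared. Of these, 4 were lower in KO and 1 was higher, with a median of -0.18, where 50.1% of all 10846 genes tested were lower. Gvin1 alone passed the size rule, at -1.56, and 0.387% of all genes were called lower by that rule. Irgm1 was lower by 1.29-fold (1.10 to 1.52), a difference of -0.33 with intervals apart. Such a difference was seen in 9.26% of all genes at this time. Igtp differed by -0.18, Irgm2 by -0.06 and Ifi47 by 0.30, each with intervals that overlapped. Iigp1, Tgtp1 and Tgtp2 were below 1 FPKM in both libraries at 0 h and were not compared by the rule, and their values in KO and WT had overlapping intervals. The marker sums given above differed between KO and WT at 0 h too: those of neutrophils, stromal cells and mast cells, basophils and eosinophils were higher in KO, and 4 of 5 dendritic cell markers tested were lower. Their part in these differences was not tested.

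**Figure D3:**
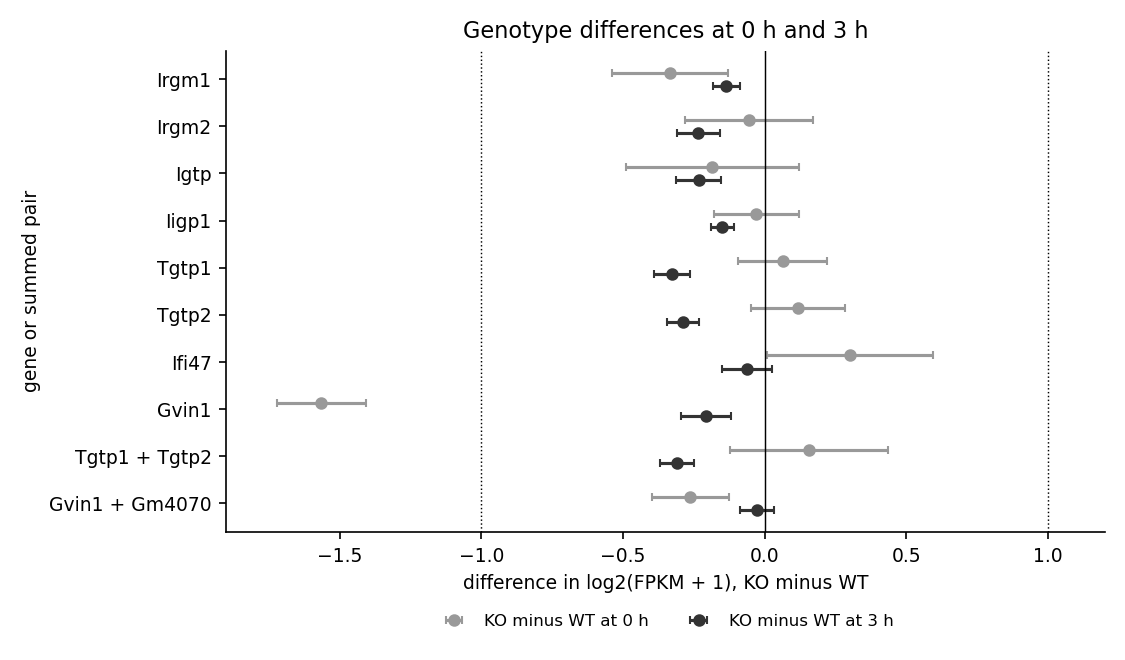
Difference in log2(FPKM + 1), KO minus WT, at 0 h (grey) and at 3 h (black) for the 8 members and 2 summed pairs, with bars for the interval propagated from the deposited ones and dotted lines at -1 and 1. All 8 members lie below 0 at 3 h within -0.33 to -0.06, and Gvin1 alone lies past -1 at 0 h, at -1.56, while the sum of Gvin1 and Gm4070 lies at -0.26.

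Gvin1 has a near copy in the genome, and its value at 0 h was set beside that gene. Gm4070, at chr7:105895118-105953967 on the minus strand, is annotated with a transcript that differs from that of Gvin1 by 3 edits in 8795 bases, an identity of 99.97%. Of the 50-base words in the Gvin1 transcript, 98.3% also occur in Gm4070. The tables list the Gvin1 transcript at both places, with nearly equal levels: 2.91 and 2.90 FPKM in KO and 9.59 and 9.52 FPKM in WT at 0 h. The entries of Gm4070 carry a status of low data in all 4 libraries and were left out of the counts over all genes. The values of both genes must therefore be read as uncertain.

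Gm4070 did not have the pattern of Gvin1. Summed over both places, it was listed at 224.8 FPKM in KO and 222.8 FPKM in WT at 3 h. At 0 h it was listed at 26.0 FPKM in KO and 19.2 FPKM in WT, and so was higher in KO. Its 2 transcripts, like that of Gvin1, are each listed at both places with nearly equal levels. In KO at 3 h these were 81.1 and 81.7 FPKM for the higher transcript, and 31.0 FPKM at each place for the other. The levels and shares given below sum both places. Whether the same reads were counted at each place was not tested. Gvin1 made up 17.1% of the pair's FPKM in KO at 3 h, 19.4% in WT at 3 h, 18.3% in KO at 0 h and 49.9% in WT at 0 h. The WT library at 0 h stood apart from the other 3 in this share. One of the 2 transcripts of Gm4070 was listed at 0 in that library, and at 5.07 FPKM in KO at 0 h, 62.1 FPKM in KO at 3 h and 64.6 FPKM in WT at 3 h.

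Summed over both places, Gvin1 and Gm4070 together were at 271.3 FPKM (264 to 278) in KO and 276.6 FPKM (267 to 286) in WT at 3 h. At 0 h the sum was 31.8 FPKM (29.4 to 34.1) in KO and 38.3 FPKM (35.9 to 40.7) in WT. The sum was 1.21-fold lower in KO at 0 h (1.09 to 1.33), against 3.29-fold (2.91 to 3.73) for Gvin1 alone, so that it did not pass the size rule. Between the times the sum differed by 8.54-fold in KO and 7.22-fold in WT, where Gvin1 alone gave 8.0 in KO and 2.81 in WT. Gm1966, another member of the giant GTPase family, was at 29.9 FPKM in KO and 38.5 FPKM in WT at 3 h, and at 9.75 FPKM in KO and 11.1 FPKM in WT at 0 h. Its KO minus WT difference at 0 h was -0.18, against -0.26 for the summed pair.

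Ifi47 was listed from different transcripts at the 2 times. One annotated transcript starts at chr11:49076587, and the other 2 start 10430 bases downstream, at chr11:49087017. At 3 h, the downstream start gave 155.1 FPKM in KO, all of the gene's FPKM, and 138.6 FPKM in WT, 85.5% of it. The upstream start was listed at 0 in KO at 3 h and at 23.5 FPKM in WT at 3 h, 14.5% of the gene. At 0 h, the upstream start held all of the FPKM in both genotypes, 3.44 in KO and 2.60 in WT, and the downstream start was listed at 0. The remaining transcript was listed at 0 in all 4 libraries. The promoter stretch printed above, without either core, belongs to the upstream start. A value of 0 in a table without counts can be a failed estimate, so these shares describe how the deposited values are divided and not measured start sites.

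**Figure D4:**
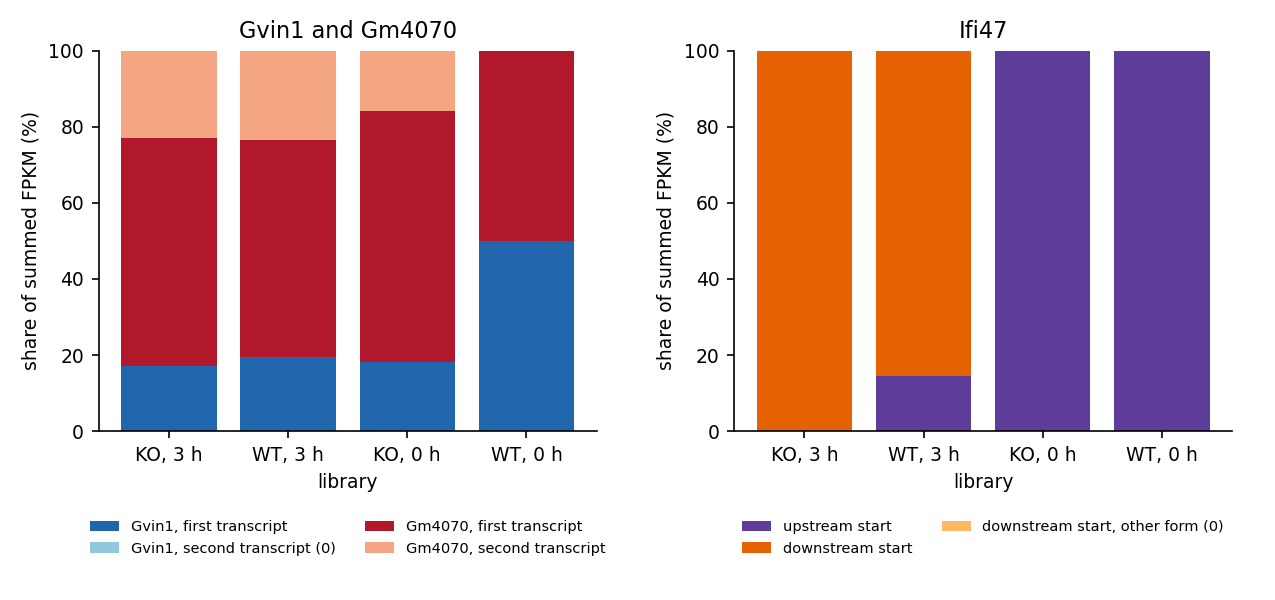
Share of the summed FPKM (%) held by each listed transcript in the 4 libraries, for Gvin1 with Gm4070 (left) and Ifi47 (right). Gvin1 holds 49.9% of its pair in WT at 0 h and 17.1% to 19.4% in the other 3 libraries, and Ifi47 lies at its upstream start at 0 h and mostly or wholly at its downstream start at 3 h.

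The third question was whether the difference between 3 h and 0 h itself differed between KO and WT. The value, KO minus WT of the log2 differences, was below 0 for 6 members and above 0 for 2, where 63.4% of all genes were below 0. Gvin1 alone passed the size rule, at 1.36, where 0.953% of all genes were called higher. For the sum of Gvin1 and Gm4070 it was 0.23 and did not pass. The next values were -0.41 for Tgtp2, -0.39 for Tgtp1, -0.36 for Ifi47 and 0.20 for Irgm1. They ran from -0.18 to -0.05 for Irgm2, Iigp1 and Igtp. The median over all genes was -0.08. For the regulators summed the value was 0.10 (-0.17 to 0.37) and for the effectors summed it was -0.50 (-0.89 to -0.10). The effector sum lay beyond each single effector, which ran from -0.41 for Tgtp2 to -0.12 for Iigp1. At 0 h most of that sum was Ifi47 (3.44 of 4.00 FPKM in KO and 2.60 of 3.03 FPKM in WT), whose KO and WT intervals overlapped. At 3 h Ifi47 was the smaller part (155.1 of 603.1 FPKM in KO and 162.0 of 686.5 FPKM in WT).

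Other genes of the same defence were set beside the members by lists of fixed membership. Of 17 other IRG and giant GTPase genes, 13 were in the tables. By the size rule, 10 of the 12 tested were higher at 3 h in KO and the same number in WT, against 7.85% of all genes in KO and 7.56% in WT, and none was lower. Of these, 4 (Gm12185, F830016B08Rik, Gm4951 and Gm4841) met the minimum level only through their 3 h libraries, so that their direction was fixed by the filter. Gm12250, an IRG gene, had the highest difference between the times, at 72.4 FPKM in KO and 82.0 FPKM in WT at 3 h, and at 1.55 FPKM in KO and 1.43 FPKM in WT at 0 h. Irgc1, an IRG relative known mainly from testis, went the other way, at 2.58 FPKM in KO and 3.21 FPKM in WT at 3 h, and at 5.61 FPKM in KO and 7.37 FPKM in WT at 0 h. Between genotypes none passed the rule, by which 1.46% of all genes were called at 3 h and 1.71% at 0 h in either direction. The KO minus WT median was -0.17 at 3 h (12 tested, 10 lower) and -0.25 at 0 h (8 tested, 7 lower). Of all genes, 65.6% were lower at 3 h and 50.1% at 0 h. The difference at 3 h ran from -0.51 for F830016B08Rik to 0.04 for 9930111J21Rik1.

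The guanylate-binding proteins (GBPs) are GTPases that act with IRG proteins on pathogen vacuoles. All 11 were higher at 3 h by the size rule in both genotypes, where 7.85% of all genes in KO and 7.56% in WT were, but 4 of them (Gbp2b, Gbp4, Gbp10 and Gbp11) met the minimum level only through their 3 h libraries. Gbp5, a promoter of inflammasome activation, had the highest difference, at 893.1 FPKM in KO and 866.8 FPKM in WT at 3 h, and at 2.55 FPKM in KO and 3.52 FPKM in WT at 0 h. None passed the rule between genotypes. At 3 h, 8 of 11 were lower in KO, where 65.6% of all genes were lower. Their median was -0.07, equal to that of all genes to 2 decimals. The nearest to the threshold was Gbp2b, at 15.8 FPKM in KO and 31.7 FPKM in WT, a difference of -0.96. At 0 h, all 7 tested were lower in KO, where 50.1% of all genes were lower. Their median was -0.35, with the lowest value at Gbp2, which was at 31.6 FPKM in KO and 49.8 FPKM in WT.

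The IFN-γ signalling list (16 genes: receptor chains, kinases, STAT and IRF factors, the inhibitors Socs1, Socs3, Ptpn2 and Ptpn6, and the MHC gene activators Nlrc5 and Ciita) had KO minus WT medians of -0.05 at 3 h and -0.02 at 0 h, and none passed the size rule. Between the times, 10 were higher by the rule in each genotype, where 7.85% of all genes in KO and 7.56% in WT were called higher. By the same rule 1 was lower in each, where 28% of all genes in KO and 23.2% in WT were called lower. Irf1, which binds ISRE sequences, was at 370.3 FPKM in KO and 419.3 FPKM in WT at 3 h, and at 12.6 FPKM in KO and 12.4 FPKM in WT at 0 h. Ifngr1, a chain of the IFN-γ receptor, was the lower one, at 13.0 FPKM in KO and 18.7 FPKM in WT at 3 h, and at 34.3 FPKM in KO and 51.3 FPKM in WT at 0 h. At 0 h, Ciita, which acts on MHC class II genes, was the lowest of the list, at 9.52 FPKM in KO and 18.8 FPKM in WT, a difference of -0.91.

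The type I interferon-stimulated genes (17) lay the other way at 3 h. Of these, 13 were higher in KO, as were 34.4% of all genes, with a median of 0.16 and none past the size rule. Rsad2, the antiviral protein viperin, had the highest difference, at 890.0 FPKM in KO and 467.7 FPKM in WT, or 0.93. At 0 h the median of the 14 tested was -0.08. All 17 were higher at 3 h than at 0 h by the size rule in both genotypes, against 7.85% of all genes in KO and 7.56% in WT, and 4 of them in KO (Ifit1, Ifit3, Mx2 and Oasl1) and 3 in WT (without Mx2) met the minimum level only at 3 h.

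The autophagy list (16) holds conjugation genes that IRG proteins need to reach vacuoles. It had KO minus WT medians of -0.05 at 3 h and -0.06 at 0 h, with none past the rule. Between the times most of its genes were lower at 3 h, by a median of 0.49 in KO and 0.37 in WT, while over all genes the median difference was -0.64 in KO and -0.54 in WT. Atg7, an activating enzyme of the conjugation, was at 10.5 FPKM in KO and 11.7 FPKM in WT at 3 h, and at 30.8 FPKM in KO and 35.6 FPKM in WT at 0 h. Trim21, an interferon-inducible ubiquitin ligase, was at 42.2 FPKM in KO and 34.2 FPKM in WT at 3 h, and at 3.2 FPKM in KO and 3.86 FPKM in WT at 0 h.

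**Figure D5:**
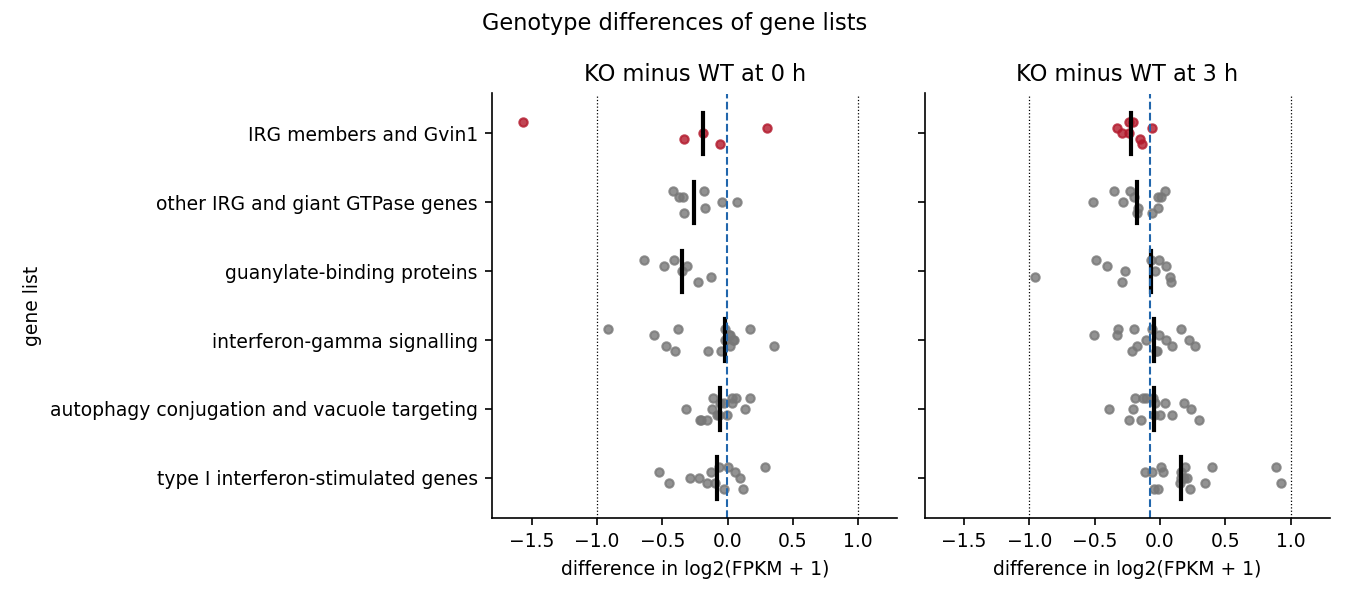
Difference in log2(FPKM + 1), KO minus WT, at 0 h (left) and 3 h (right) for the members (red) and 5 lists (grey), with 1 point per gene tested, a black bar at the list median, a dashed line at the median of all genes and dotted lines at -1 and 1. At 3 h the members' median is -0.22 and that of the type I interferon-stimulated genes is 0.16. Gvin1 at 0 h, at -1.56, is the single point beyond a dotted line.

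The genes with profiles most like those of the members over the 4 libraries were found among 8235 genes by the Euclidean distance between centred log2(FPKM + 1) profiles. For the median profile of the 7 IRG members they were Ly6a (0.22), Irf7 (0.27), Ccrl2 (0.36), Gbp6 (0.36) and AW112010 (0.39). Ly6a, a surface antigen also called Sca-1, was at 99.8 FPKM in KO and 102.5 FPKM in WT at 3 h, and at 1.43 FPKM in KO and 0.942 FPKM in WT at 0 h. Among the members, Ifi47 was nearest to that median profile (0.04), while Iigp1 (2.49) and Gvin1 (3.47) were farthest from it. The profile is made of the 7 IRG members themselves, so a member in their middle had to lie near it. Gvin1 had no part in the profile. For Gvin1, the nearest were Ccl22 (0.45), Serpinb9b (0.60), Tnfsf4 (0.61), Klrb1b (0.67) and AA467197 (0.69). The Gvin1 profile holds its WT level at 0 h, which is uncertain because of the near copy Gm4070. The profile of the summed pair was not searched, so these neighbours hold for the values as listed. Ccl22, a chemokine for cells with the receptor CCR4, was at 954.5 FPKM in KO and 881.4 FPKM in WT at 3 h, and at 149.0 FPKM in KO and 302.3 FPKM in WT at 0 h. With 4 libraries a profile has few points, and these distances are descriptions.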

How the data were processed

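The authors' deposited values are FPKM per RefSeq transcript with 95% limits and a status, 1 table per library for 4 libraries, with no read counts. Per the submitters' processing notes, TopHat2, Bowtie, SAMtools and Cufflinks were used with mm9, with no versions given in the sources used here. The loci lie on GRCm38 (96.5% of 33599 named entries lay inside the GRCm38 gene), so coordinates are given on that build. Strand-specific single reads were made, per the labels.

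Of 33841 entries per library, 33437 were named from RefSeq and 187 from GENCODE, and 217 kept their accession. FPKM and limits were summed per gene, and each interval was shifted to lie on its FPKM, keeping its relative width. Genes with an entry not marked OK were left out of counts. Values were compared without rescaling as log2(FPKM + 1), with Python 3.11.15, pandas 2.3.3 and numpy 2.4.6. The size rule is stated with the results and used the limits as deposited, and for the difference between time differences the propagated interval had to exclude 0. Relative depth came from the upper limits of 4670 entries at 0 in each library.

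The members, lists and rules were chosen with earlier results of these data known. Named genes are the members, Batf2, genes at the ends of a list and the 5 nearest profiles among genes that reached 5 FPKM. Irf1, Ifngr1, Atg7 and Trim21 are such ends, and Gm4070 and Gm1966 were named after their values were seen. Alternatives were another pseudocount, rescaling, filter, interval rule, status rule or transcript choice and summed gene pairs. Of these, the sum of Gvin1 with Gm4070, Gvin1 at its own place and the midpoint of the deposited limits as the level were chosen after seeing the data. Protein sequences were not analysed here.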

Additional observations from a re-analysis of the deposited data

Results flagged for a closer look

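For 3 members the KO minus WT difference had opposite signs at 3 h and at 0 h, in single libraries, and this was not tested. The difference between the responses was -0.39 for Tgtp1, with a KO minus WT difference of -0.33 at 3 h and 0.06 at 0 h. It was -0.41 for Tgtp2, with -0.29 at 3 h and 0.12 at 0 h. Both genes were below 1 FPKM in KO and in WT at 0 h, with intervals that overlap, and they share most of their sequence. It was -0.36 for Ifi47, with -0.06 at 3 h and 0.30 at 0 h. The KO and WT intervals of Ifi47 overlapped at both times. The interval of the difference between the responses, propagated from those of the 4 libraries, was -0.56 to -0.22 for Tgtp1, -0.58 to -0.23 for Tgtp2 and -0.67 to -0.06 for Ifi47, each without 0, and it does not cover the spread between cultures. For Tgtp1 and Tgtp2 it depends on the 1 added to each FPKM, which is larger than their 0 h values. As plain folds between the times, their KO and WT intervals overlapped. They were 282 to 785 in KO and 429 to 1460 in WT for Tgtp1, and 286 to 683 in KO and 461 to 1663 in WT for Tgtp2.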

How the results depend on the processing

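Over all alternatives, 465 of 475 values of single members kept both their direction and their side of the size rule, 7 changed sign without ever having passed the rule, and 3 lost the call. The sign changes were Ifi47 for KO minus WT at 3 h (0.02, 0.01 and 0.16 after median rescaling, after upper-quartile rescaling and with the highest transcript), and for the difference between responses Igtp (0.00 with a pseudocount of 0.1, 0.04 and 0.03 after the same rescalings) and Iigp1 (0.01 with a pseudocount of 0.1). The 3 lost calls belong to Gvin1. Summed with Gm4070 Gvin1 was at -0.26 for KO minus WT at 0 h and at 0.23 for the difference between responses, and with a pseudocount of 5 the difference between responses was 0.97. The number of members past the rule was then 0 in place of 1 at 0 h (summed) and 0 in place of 1 for the difference between responses (summed, and with a pseudocount of 5). The median 3 h minus 0 h difference over members was 5.01 in KO and 5.09 in WT. With a pseudocount of 0.1 it was 5.25 in KO and 5.46 in WT, with 5 it was 4.27 in KO and 4.36 in WT, after median rescaling 5.59 in KO and 5.57 in WT, after upper-quartile rescaling 5.38 in both, and with Tgtp1 and Tgtp2 summed 4.69 in WT. The KO minus WT median at 3 h, -0.22, was -0.14 after median rescaling. That rescaling moved the median 3 h minus 0 h difference of all genes to -0.08 in KO and -0.07 in WT, and the calls over all genes to 1401 higher and 1106 lower in KO (861 and 3065 without it) and 1273 higher and 1063 lower in WT (820 and 2514). After upper-quartile rescaling they were 1152 and 1662 in KO and 1065 and 1528 in WT. Between genotypes the calls were 72 higher and 71 lower at 3 h and 144 and 42 at 0 h. With a pseudocount of 0.1 these were 132 and 143 at 3 h and 270 and 75 at 0 h, and with 5 they were 27 and 20 at 3 h and 48 and 16 at 0 h. No paired analysis was possible because each group has 1 library, and for the same reason no library could be left out. Depth in reads is not given, and the intervals do not cover the spread between cultures.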

Other observations

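Gm8979, a further giant GTPase relative, was at 48.3 FPKM in KO and 50.5 FPKM in WT at 3 h, and at 6.91 FPKM in KO and 7.95 FPKM in WT at 0 h. Of the IRG relatives, Gm4951 was at 33.3 FPKM in KO and 40.8 FPKM in WT at 3 h, and at 0.277 FPKM in KO and 0.604 FPKM in WT at 0 h. F830016B08Rik was at 13.8 FPKM in KO and 20.0 FPKM in WT at 3 h, and at 0.0977 FPKM in KO and 0.149 FPKM in WT at 0 h. Irgq, an IRG relative, was lower at 3 h, at 2.24 FPKM in KO and 2.22 FPKM in WT, against 4.80 FPKM in KO and 4.99 FPKM in WT at 0 h. Sqstm1, the autophagy receptor also called p62, was at 440.4 FPKM in KO and 373.4 FPKM in WT at 3 h, and at 160.7 FPKM in KO and 146.1 FPKM in WT at 0 h. These genes were named after their values were seen.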
